A study of Mus musculus with 8 samples.

Results

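The transcripts described here encode the nuclear subunits of respiratory complexes II, III, IV and V, with cytochrome c, in mouse tibialis anterior muscle. They were taken by gene name: non-control probes named Sdha to Sdhd, Cyc1, Cycs, or beginning with Uqcr, Cox4 to Cox8, or Atp5. This gave 49 genes on 77 probes, out of 56605 probes on the array. Complex II had 4 genes, complex III 9, cytochrome c 1, complex IV 17 and complex V 15. The other 3 matched by name only: Atp5c1-ps is listed as a pseudogene, and Atp5s and Atp5sl carry the current symbols Dmac2l and Dmac2. They were counted as members and kept outside the complex medians.

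Oxidative phosphorylation passes electrons from nutrients along complexes of the inner mitochondrial membrane and stores the released energy as a proton gradient. Complex II (succinate dehydrogenase) feeds electrons from succinate into the ubiquinone pool, complex III passes them to cytochrome c, and complex IV (cytochrome c oxidase) hands them to oxygen. Complex V, the ATP synthase, lets protons flow back and makes ATP. Skeletal muscle uses several tissue-specific subunit isoforms of complex IV, and most subunits of these complexes are encoded in the nucleus.

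There were 4 arrays of muscle from mice labelled as given P. gingivalis, an anaerobic bacterium of inflamed gums, and 4 labelled control. The strain was C57BL/6J, and all animals were males of 14 weeks. According to the treatment protocol the whole cohort ate a high-fat diet, and the bacterium was given in 100 µL of saline through a feeding needle for 6 weeks from the age of 8 weeks. The labels give neither the bacterial dose nor what the controls received. Nor do the labels say outright that each array is a different mouse, so p-values measure the spread between these samples. The question put to these arrays is how oral P. gingivalis affects gene expression in this muscle.

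All 8 arrays lay on 1 slide, with the P. gingivalis arrays in row 2 and the control arrays in row 1. An effect of the row and one of the bacterium therefore cannot be told apart. The 75th percentile of processed signal was 238 to 255 in P. gingivalis arrays and 275 to 306 in control arrays, and each array was scaled to its own. The authors' deposited value table goes against the labels of the scanner files. Each of its 8 columns matched 1 array by its values (correlation at least 0.832, next best at most 0.0783), but only 4 columns matched an array of the group they name. P. gingivalis 3, P. gingivalis 4, control 1 and control 2 have the same group in both sources. Groups below follow the scanner files, and the main counts are also given under the value table's groups and on those 4 arrays.

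Signals are log2 values relative to each array's 75th percentile. Of the 49 genes, 47 were tested, because the scanner called them well above background in 4 arrays or more. Cox7b2 and Cox8c, known as testis isoforms of complex IV, were well above background on 0 of the 8 arrays. The 8 muscle fibre markers checked (Ckm, Acta1, Myh1, Myh2, Myh4, Mylpf, Tnnt3 and Tnni2) were all tested, as the tissue label requires. Of 4 brown adipocyte markers, Ucp1 and Elovl3 had 0 arrays well above background. The other 2, Cidea and Dio2, were well above background on all 8 arrays. They differed by -0.11 ± 0.10 and -0.23 ± 0.21 (SE), P. gingivalis minus control.

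No member of complexes II to V differed between P. gingivalis and control muscle after adjustment. By limma, 0 of the 47 tested genes had a Benjamini-Hochberg adjusted p under 0.05 (0.0% of all 20127 genes tested), and the lowest was 0.413, for Cox8a. At an unadjusted p under 0.05, 0 members were higher, against 4.83% of all genes, and 1 was lower, Cox8a, against 6.11% of all genes. The 4 P. gingivalis values lay wholly above or below the 4 control values in 0 members, against 6.76% of all genes. There were 20 members with a positive and 27 with a negative difference, with a median of -0.02, and over all genes tested the median was also -0.02. The difference was positive in 9062 of all 20127 genes. The members' split depended on the values used. It was 14 positive and 33 negative under quantile normalization (positive in 9819 of all 20127 genes) and 12 and 35 after normexp background correction (12034 of 20127). In the authors' value table it was 24 and 23 with columns matched to arrays by their values (9678 of all 19140 genes) and 30 and 17 with the table's own labels (9571 of 19140).

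The intervals around these differences were narrow. The 95% confidence interval lay within a 1.2-fold change either way for 42 of the 47 tested members, or 89.4%, and within a 1.5-fold change for 47 of 47. Over all genes tested the shares were 32.7% and 80.2%. The members are bright probes, however, and among the 464 genes at least as bright as the members' lower quartile the shares were 73.7% and 98.7%. The median SD within a group was 0.072 for members, 0.140 for all genes and 0.070 for those bright genes. The 5 members whose intervals passed 1.2-fold were Sdhd, Cox8a, Cox6a1, Cox4i2 and Atp5b.

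With groups taken from the value table, limma on the scanner values gave 0 members higher and 0 lower at an unadjusted p under 0.05, against 1.68% and 2.04% of all genes. On the 4 arrays whose group both sources share, 0 members passed in either direction, against 3.97% and 4.8%. In that smaller set 11 members had groups that did not overlap, against 43.5% of all genes. Under the value table's own values and labels, 0 members were lower at an unadjusted p under 0.05 by limma (2.04% of all genes) and 1 had groups that did not overlap (2.28%). With its columns matched to arrays by their values and grouped as the scanner files are, 2 members were higher (6.07%), Atp5b (0.19 ± 0.07, adjusted p = 0.336) and Atp5j (0.15 ± 0.06, adjusted p = 0.360). Then 3 were lower (5.18%), Cox6a2, Uqcrh and Cox8a, and 6 had groups that did not overlap (6.66%).

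**Figure D1:**
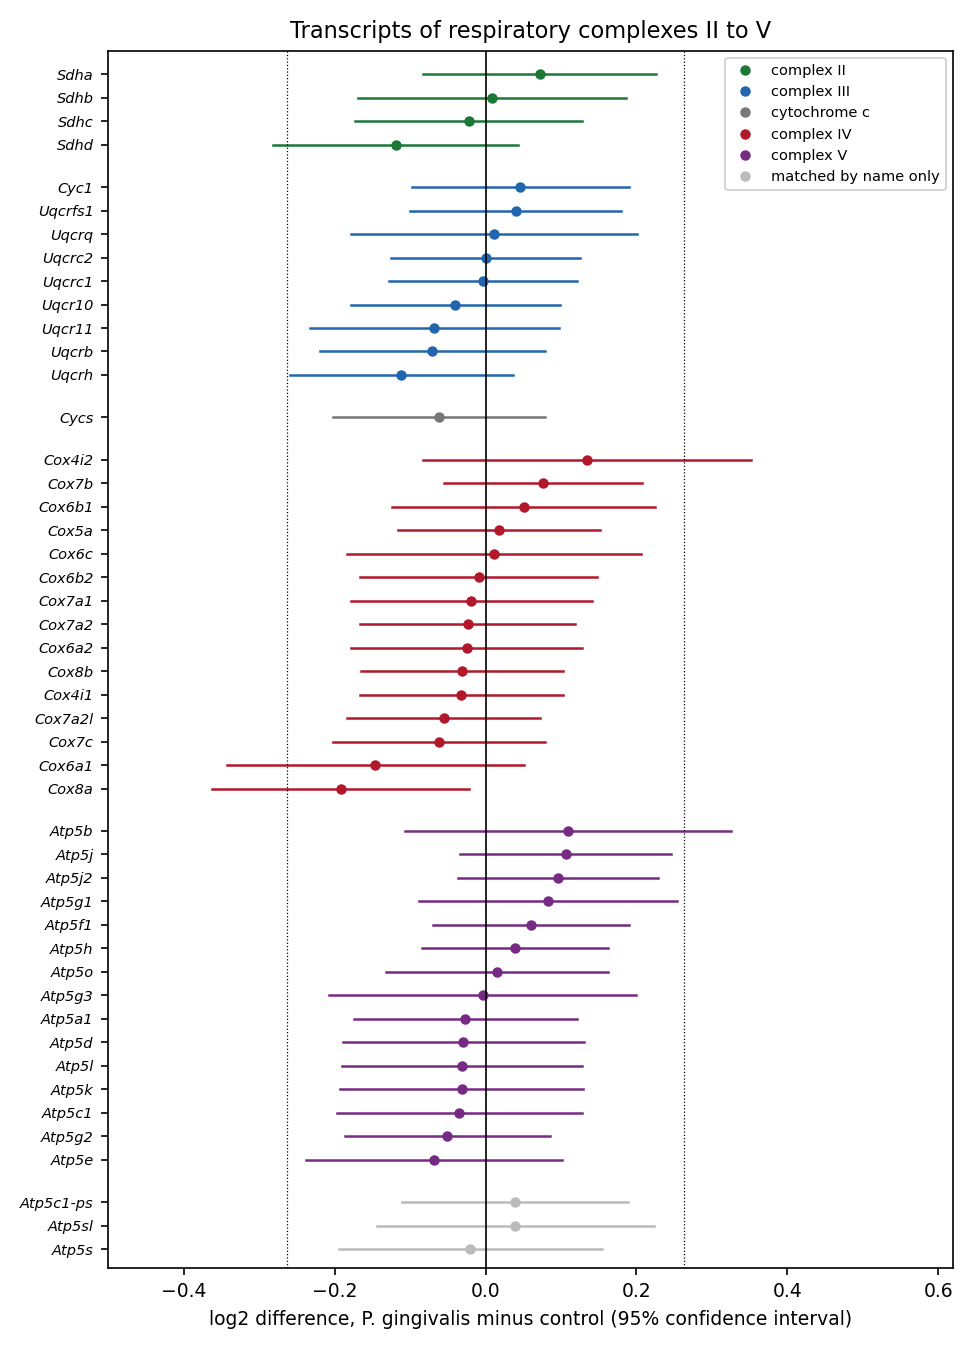
Log2 difference (P. gingivalis minus control, x axis) of the 47 tested member genes, grouped by complex, with 95% confidence intervals from limma. Dotted lines mark a 1.2-fold change either way. Each interval except that of Cox8a crosses 0.

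Promoters of 37 of the 49 members were found in RefSeq (GRCm38.p6) as windows of 250 bases before to 50 after the annotated start. The windows were searched on both strands for the letters of 4 factors known to control respiratory genes, with the differences already known. The NRF1 letters CGCATGCG were in 8 members (21.6%; 2.07% of 27025 genes), and the GABP letters CCGGAAGT in 4 (10.8%; 4.31%). The ERR letters TCAAGGTCA were in 2 (5.41%; 0.466%), and the YY1 letters AAGATGG in 5 (13.5%; 7.28%). Atp5j held letters of both NRF1 and YY1, and Uqcr11 of both NRF1 and GABP. A match is a run of letters and not a measured site. The 7 stretches below are shown because their genes, from complexes III, IV and V, are described in detail further on. They are written 5′ to 3′ along the gene's strand with the matched letters, or their reverse complement, in capitals. GABP letters stand in Cox8a, Uqcrh and Uqcr11, NRF1 letters in Cox6a1 and Atp5g2, ERR letters in Atp5g3 and YY1 letters in Atp5j.
Cox8a: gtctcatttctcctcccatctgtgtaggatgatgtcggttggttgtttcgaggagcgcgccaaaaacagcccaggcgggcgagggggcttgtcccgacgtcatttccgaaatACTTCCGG
Uqcrh: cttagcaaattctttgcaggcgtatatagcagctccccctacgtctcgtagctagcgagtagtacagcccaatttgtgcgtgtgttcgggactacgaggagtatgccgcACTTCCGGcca
Uqcr11: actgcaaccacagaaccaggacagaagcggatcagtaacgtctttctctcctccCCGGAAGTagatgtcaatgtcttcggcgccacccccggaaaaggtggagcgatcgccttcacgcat
Cox6a1: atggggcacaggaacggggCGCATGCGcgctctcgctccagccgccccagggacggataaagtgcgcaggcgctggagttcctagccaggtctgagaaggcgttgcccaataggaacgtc
Atp5g2: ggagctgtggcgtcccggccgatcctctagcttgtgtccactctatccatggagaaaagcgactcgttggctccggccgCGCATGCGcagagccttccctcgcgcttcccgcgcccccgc
Atp5g3: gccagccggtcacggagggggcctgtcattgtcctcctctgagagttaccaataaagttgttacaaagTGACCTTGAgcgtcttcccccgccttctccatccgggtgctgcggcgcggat
Atp5j: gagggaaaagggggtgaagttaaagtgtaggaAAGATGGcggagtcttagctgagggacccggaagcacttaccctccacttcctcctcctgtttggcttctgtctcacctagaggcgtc

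All 7 lie on the minus strand of GRCm38.p6 and are 120 bases long. Cox8a's stretch is chr19:7217615-7217734, with its match beginning 6 bases before the start. Uqcrh's is chr4:116075071-116075190, with the match 11 bases before the start, and Uqcr11's is chr10:80406822-80406941, with the match at 66 bases. Cox6a1's is chr5:115349019-115349138, with the match at 161 bases. The complex V stretches are chr15:102671048-102671167 for Atp5g2 (match at 41 bases), chr2:73911327-73911446 for Atp5g3 (52 bases) and chr16:84834977-84835096 for Atp5j (88 bases). The median log2 difference was -0.09 over the 4 tested members with GABP letters (Cox8a, Uqcrh, Uqcr11 and Atp5h) and -0.04 over the 8 with NRF1 letters. It was -0.06 over the 2 with ERR letters (Atp5g3 and Sdhd) and 0.06 over the 5 with YY1 letters. Over the tested members with a promoter but without the letters, the median was -0.014 for GABP, -0.0065 for NRF1, -0.020 for ERR and -0.024 for YY1. These are descriptions with no test, and the sets holding the letters are small.

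Complex II had 2 genes with a positive and 2 with a negative difference, and a median of -0.0068. Sdhd, a membrane anchor of the complex, had signals of 6.52, 6.40, 6.46 and 6.63 in P. gingivalis muscle, against 6.70, 6.55, 6.66 and 6.58 in control muscle. The groups overlapped through P. gingivalis 4, which lay above control 2 and control 4, and the difference was -0.12 ± 0.07 (SE; adjusted p = 0.554, limma). Sdha, the flavoprotein that oxidises succinate, had signals of 6.05, 6.05, 6.15 and 6.24 in P. gingivalis muscle, against 6.13, 6.04, 6.00 and 6.02 in control muscle. P. gingivalis 3 and 4 were above each control array and P. gingivalis 1 and 2 were not, giving a difference of 0.07 ± 0.07 (adjusted p = 0.705, limma). Sdhc, the other membrane anchor, stood at 5.83, 5.73, 5.89 and 5.85 in P. gingivalis muscle, against 5.87, 5.85, 5.92 and 5.74 in control muscle. Its groups covered nearly the same range and differed by -0.02 ± 0.07. Sdhb, the iron-sulfur subunit, differed by 0.0087 ± 0.08. Since succinate dehydrogenase is also an enzyme of the citric acid cycle, these are the cycle's values for that step too.

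Complex III had 4 genes with a positive and 5 with a negative difference, with a median of -0.0032. Uqcrh, the hinge protein near the cytochrome c docking site, had signals of 8.81, 8.61, 8.66 and 8.74 in P. gingivalis muscle, against 8.87, 8.81, 8.78 and 8.79 in control muscle. Only P. gingivalis 1 reached into the control range, and the difference was -0.11 ± 0.06 (adjusted p = 0.544, limma). Uqcrb, a small subunit close to the ubiquinone site, had signals of 7.51, 7.46, 7.55 and 7.65 in P. gingivalis muscle, against 7.68, 7.57, 7.63 and 7.57 in control muscle. Its difference was -0.07 ± 0.07, with P. gingivalis 4 inside the control range. Uqcr11, another small subunit, had 8.18, 7.94, 8.04 and 7.98 in P. gingivalis muscle, against 8.18, 8.03, 8.09 and 8.11 in control muscle. P. gingivalis 1 equalled the highest control array, and the difference was -0.07 ± 0.07. The remaining 6 genes lay between -0.04 for Uqcr10 and 0.05 for Cyc1, the cytochrome c1 that reduces cytochrome c. Uqcrfs1, the Rieske iron-sulfur protein, differed by 0.04, and the core proteins Uqcrc1 and Uqcrc2 by -0.0032 and 0.00018.

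Cycs, the mobile carrier between complexes III and IV, had signals of 8.23, 8.10, 8.07 and 8.11 in P. gingivalis muscle, against 8.26, 8.16, 8.17 and 8.16 in control muscle. Control 1 stood above the other control arrays, which were between 8.16 and 8.17. P. gingivalis 1 was nearly as high, and the difference was -0.06 ± 0.06 (adjusted p = 0.719, limma).

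Complex IV had 5 tested genes with a positive and 10 with a negative difference, with a median of -0.024. Cox8a, the ubiquitous form of the smallest subunit, had signals of 5.34, 5.44, 5.51 and 5.37 in P. gingivalis muscle, against 5.72, 5.62, 5.46 and 5.62 in control muscle. P. gingivalis 1, 2 and 4 lay below each control array, and P. gingivalis 3 lay above control 3. The signal was 0.875-fold that of control muscle (95% confidence interval 0.778 to 0.985, unadjusted p = 0.0314, adjusted p = 0.413, limma). It is measured by 1 probe, on chromosome 19 from 7289652 to 7289708 (mm9, minus strand). Leaving out P. gingivalis 1, 2 or 4 or control 1, 2 or 4 moved the unadjusted p above 0.05, and over the 8 such fits the log2 difference ranged between -0.24 and -0.15. Under the value table's groups it was -0.04.

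Cox6a1, the ubiquitous form of subunit 6a, had signals of 5.98, 5.80, 5.92 and 5.81 in P. gingivalis muscle, against 6.18, 5.89, 5.92 and 6.10 in control muscle. Control 1 and 4 were high and control 2 and 3 were within the P. gingivalis range, with a difference of -0.15 ± 0.09 (adjusted p = 0.548, limma). Cox4i2, the lung-type and oxygen-responsive form of subunit 4, was the dimmest of the genes given in full. It had -0.23, -0.48, -0.33 and -0.17 in P. gingivalis muscle, against -0.57, -0.30, -0.34 and -0.53 in control muscle. The groups overlapped, and the difference was 0.13 ± 0.09 (adjusted p = 0.615, limma). The complex IV genes without a value per array here were Cox5a, Cox6b1, Cox6b2, Cox6c, Cox7a2l, Cox7b and Cox7c. They lay between -0.06 for Cox7c and 0.08 for Cox7b. A dimmer Cox7c probe gave 0.28 ± 0.21 (adjusted p = 0.633, limma). Cox7a2l, which stabilises supercomplexes of complexes III and IV, differed by -0.06.

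The muscle-type isoforms of complex IV did not pass an unadjusted p of 0.05 by limma after 75th percentile scaling, and their estimates moved with the scaling. Cox6a2, the heart and muscle form of subunit 6a, had signals of 9.40, 9.27, 9.30 and 9.31 in P. gingivalis muscle, against 9.47, 9.28, 9.35 and 9.29 in control muscle. Its difference was -0.03 ± 0.07, while quantile normalization gave -0.16 with groups that did not overlap. Cox8b, the heart and muscle form of subunit 8 in rodents, had 9.03, 8.88, 8.97 and 8.98 in P. gingivalis muscle, against 9.05, 8.98, 8.95 and 9.01 in control muscle. The difference was -0.03 ± 0.06, and -0.11 under quantile normalization, where the groups did not overlap. Cox7a1, the muscle form of subunit 7a, had 9.17, 9.13, 9.26 and 9.16 in P. gingivalis muscle, against 9.30, 9.10, 9.27 and 9.12 in control muscle. The groups covered the same range and differed by -0.02 ± 0.07, and by -0.12 under quantile normalization. For Cox6a1 that setting gave -0.14.

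Cox7a2, the ubiquitous form of subunit 7a, had signals of 7.75, 7.58, 7.61 and 7.71 in P. gingivalis muscle, against 7.74, 7.65, 7.69 and 7.67 in control muscle, a difference of -0.02 ± 0.06. Cox4i1, the common form of subunit 4, had 8.69, 8.58, 8.72 and 8.70 in P. gingivalis muscle, against 8.75, 8.72, 8.70 and 8.65 in control muscle, a difference of -0.03 ± 0.06. In both genes P. gingivalis 2 was the lowest of the 8 arrays.

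Isoform log ratios within an array cancel any shift that acts on both probes alike, and their size reflects the probes as well as the RNA. The ratio of Cox8b to Cox8a was 3.69, 3.45, 3.46 and 3.61 in P. gingivalis muscle, against 3.33, 3.35, 3.49 and 3.39 in control muscle. P. gingivalis 1 and 4 were above each control array, and control 3 was above the other P. gingivalis arrays. The group means differed by 0.16 on the log2 scale, and by 0.03 under the value table's groups. Cox6a2 over Cox6a1 averaged 3.45 ± 0.05 in P. gingivalis and 3.33 ± 0.11 in control muscle (SD, n = 4 each), a difference of 0.12 that turned to -0.02 under quantile normalization. Cox4i2 over Cox4i1 averaged -8.97 ± 0.09 in P. gingivalis and -9.14 ± 0.14 in control muscle, a difference of 0.17. Cox7a1 over Cox7a2 differed by 0.0052, and by -0.07 under quantile normalization. All of these ratios overlapped between the groups.

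**Figure D2:**
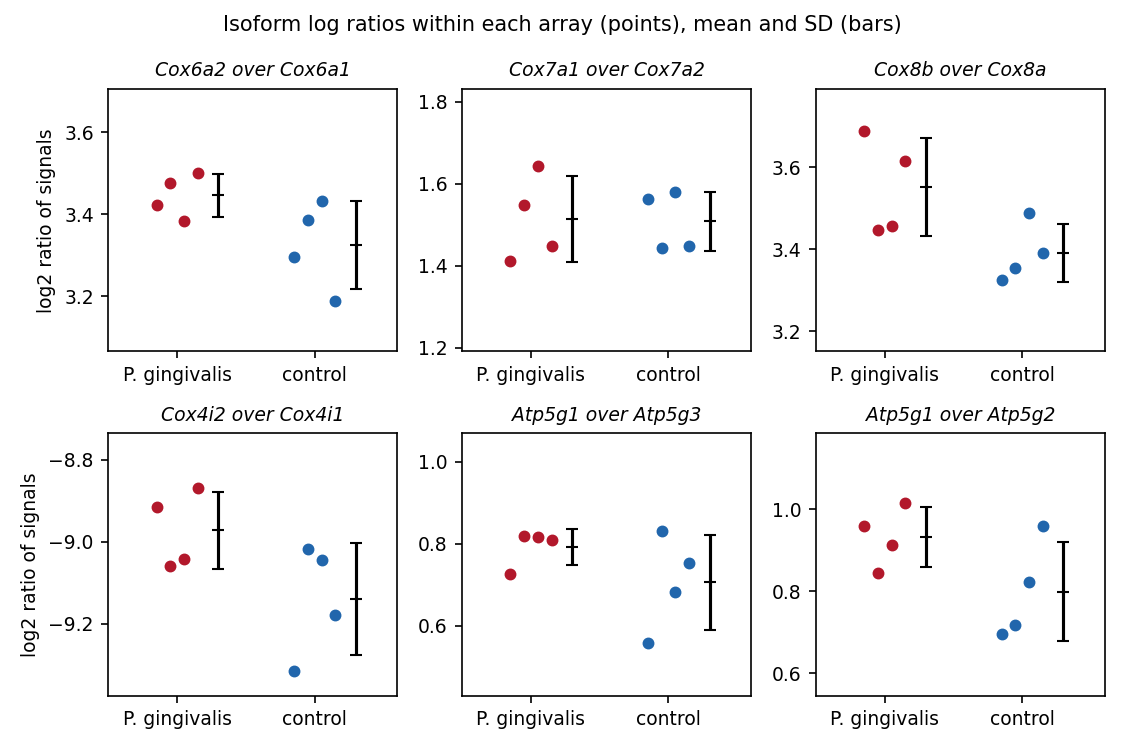
Log2 ratio of isoform signals within each array (y axis) for 6 pairs, with P. gingivalis arrays left of control arrays. Points are the 4 arrays of a group and bars give the mean and SD. Each panel spans the same log2 range, and in each the groups overlap.

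Complex V had 7 genes with a positive and 8 with a negative difference, with a median of -0.0038. Atp5j, coupling factor 6 of the stator stalk, had signals of 7.77, 7.59, 7.63 and 7.66 in P. gingivalis muscle, against 7.61, 7.55, 7.53 and 7.54 in control muscle. P. gingivalis 2 alone lay within the control range, below control 1, and the difference was 0.11 ± 0.06 (adjusted p = 0.539, limma). Atp5j2, subunit f of the membrane part, had 7.88, 7.80, 7.81 and 7.78 in P. gingivalis muscle, against 7.79, 7.69, 7.68 and 7.72 in control muscle. Control 1 alone reached the P. gingivalis range, and the difference was 0.10 ± 0.06 (adjusted p = 0.556, limma). Averaged over both of its probes, the difference was -0.05. Atp5b, the catalytic beta subunit, had 8.71, 8.45, 8.69 and 8.75 in P. gingivalis muscle, against 8.74, 8.43, 8.50 and 8.50 in control muscle on its brightest probe. P. gingivalis 2 and control 1 crossed over, and the difference was 0.11 ± 0.09 (adjusted p = 0.68, limma).

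Atp5g1, Atp5g2 and Atp5g3 encode the same mature subunit c, which forms the rotor ring, behind different import sequences. Atp5g1 had signals of 8.81, 8.68, 8.78 and 8.94 in P. gingivalis muscle, against 8.69, 8.68, 8.67 and 8.84 in control muscle. Control 4 was above the other control arrays, and the difference was 0.08 ± 0.07. Atp5g2 had 7.85, 7.84, 7.87 and 7.92 in P. gingivalis muscle, against 7.99, 7.96, 7.85 and 7.88 in control muscle, a difference of -0.05 ± 0.06. Atp5g3 had 8.08, 7.86, 7.96 and 8.13 in P. gingivalis muscle, against 8.13, 7.85, 7.99 and 8.09 in control muscle, with both groups over the same range and a difference of -0.0038 ± 0.09. Atp5g1 over Atp5g2 averaged 0.93 ± 0.07 in P. gingivalis and 0.80 ± 0.12 in control muscle (SD, n = 4 each). Atp5g1 over Atp5g3 averaged 0.79 ± 0.04 in P. gingivalis and 0.71 ± 0.12 in control muscle. Those ratios differed by 0.13 and 0.09, P. gingivalis minus control.

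The other complex V genes lay between -0.07 for Atp5e, the epsilon subunit of the central stalk, and 0.06 for Atp5f1 (now Atp5pb), the stator subunit b. Atp5a1, the alpha subunit, differed by -0.03, Atp5c1, the gamma subunit of the rotor, by -0.03, and Atp5o, the oligomycin sensitivity protein, by 0.01. A dimmer Atp5a1 probe gave 0.17 ± 0.09 (adjusted p = 0.527, limma). Among the genes matched by name only, Atp5c1-ps and Atp5sl each differed by 0.04 and Atp5s by -0.02.

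Several probes of 1 gene did not always go the same way. Of 73 tested member probes, 1 was higher at an unadjusted p under 0.05 (4.84% of all probes) and 1 lower (6.36% of all probes), the Cox8a probe. The higher one was a dimmer Atp5b probe that begins at base 455 of the transcript. It had 4.28, 4.09, 4.21 and 4.22 in P. gingivalis muscle, against 3.69, 3.76, 4.14 and 3.97 in control muscle. Its difference was 0.31 ± 0.11 (unadjusted p = 0.0188, adjusted p = 0.380, limma), and control 3 reached the P. gingivalis range. The other Atp5b probes, from bases 1318 and 1689, gave 0.08 and 0.11. Of 19 members with several tested probes, 9 had probes that differed in sign. These were Sdha, Uqcrb, Cox7c, Atp5a1, Atp5g1, Atp5j2, Atp5l, Cycs and Atp5sl. In 8 members with probes at least 200 bases apart on 1 transcript, the upstream probe had the more positive difference in 4.

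Member genes tended to lie high or low together within an array. With each of the 44 structural genes centred on its own mean, the median was 0.05, -0.08, -0.02 and 0.02 in P. gingivalis 1 to 4, against 0.08, -0.04, -0.01 and -0.02 in control 1 to 4. P. gingivalis 2 was low, with 5 of 44 genes above their own mean, and control 1 was high, with 42 of 44 above it. Each of complexes II, III, IV and V was lowest in P. gingivalis 2 and highest in control 1. Complex II had -0.02, -0.07, 0.0018 and 0.04 in P. gingivalis muscle, against 0.09, -0.03, 0.01 and -0.02 in control muscle. Complex V had 0.06, -0.08, -0.0031 and 0.06 in P. gingivalis muscle, against 0.09, -0.05, -0.04 and -0.04 in control muscle.

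Genes that are not members moved along with the members. For complex I, 37 tested genes were taken by name alone (Ndufa, Ndufb, Ndufc, Ndufs and Ndufv), Ndufa4 and Ndufa4l2 included. They had medians of 0.02, -0.06, -0.0079 and 0.0055 in P. gingivalis arrays, against 0.06, -0.03, 0.003 and -0.01 in control arrays. The 399 other genes as bright had 0.02, -0.03, 0.0095 and 0.02 in P. gingivalis arrays, against 0.05, -0.01, -0.02 and -0.04 in control arrays. P. gingivalis 2 was lowest and control 1 was highest in complex I, and in the bright genes control 1 was highest and control 4 lowest. Without P. gingivalis 2, the member genes split into 28 positive and 19 negative differences with a median of 0.01, and without control 1 also into 28 and 19, with a median of 0.01. Leaving out either array thus turned the more frequent sign to positive.

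**Figure D3:**
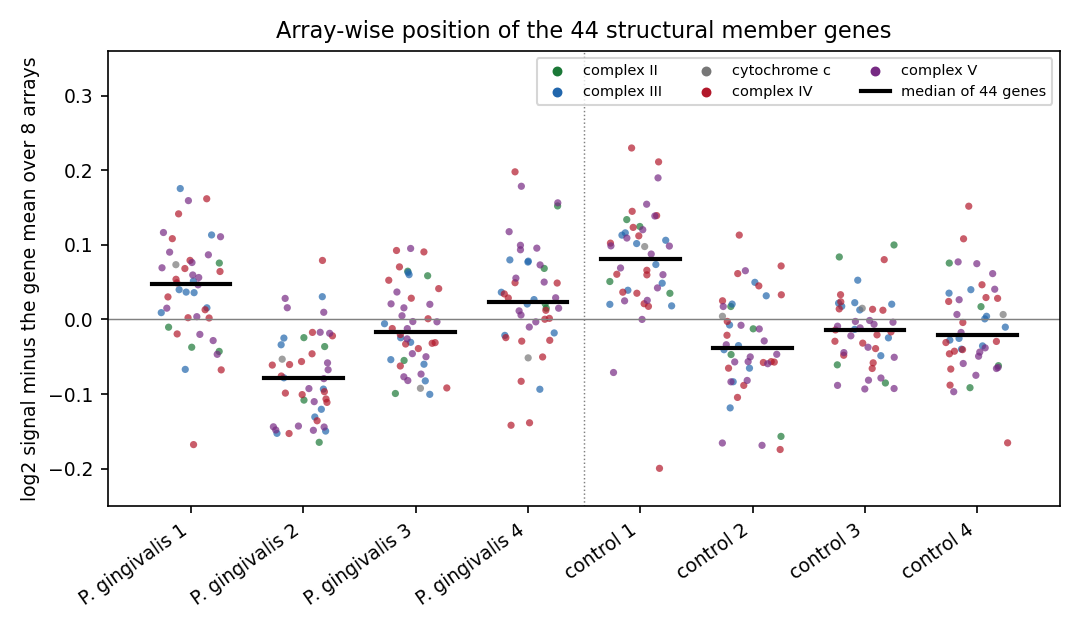
Log2 signal of the 44 structural member genes minus each gene's mean over 8 arrays (y axis), by array, P. gingivalis left of control. Points are genes coloured by complex and bars are medians. P. gingivalis 2 lies lowest (median -0.08) and control 1 highest (0.08), and the groups overlap.

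Subtracting that shared median from each array, an adjustment chosen after seeing the data, gave 5 members whose groups did not overlap, against 5.75% of all genes. The P. gingivalis arrays lay below the control arrays in Uqcrh (-0.10 ± 0.06) and above them in Atp5j (0.11 ± 0.06), Atp5j2 (0.10 ± 0.06), Atp5f1 (0.07 ± 0.06) and Cox7b (0.08 ± 0.07). By limma 0 members were lower at an unadjusted p under 0.05 (4.64% of all genes). The subtracted median came from the structural members themselves, so it narrowed their spread and not that of other genes. The median SD within a group went from 0.072 to 0.056 in structural members, and from 0.140 to 0.149 in all other genes. The member counts after this subtraction therefore cannot be fairly compared with the shares of all genes, or with the counts before it. Leaving out control 1 gave 6 members whose groups did not overlap, against 9.86% of all genes.

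Scaling mattered most for the brightest members. Under quantile normalization 6 members had groups that did not overlap, against 7.04% of all genes. The P. gingivalis arrays lay below the control arrays in Cox6a2, Cox8b, Uqcrh, Uqcr10 and Cycs and above them in Atp5j. By limma 3 were lower at an unadjusted p under 0.05 (5.18% of all genes), namely Cox6a2 (-0.16 ± 0.05, adjusted p = 0.372), Uqcrh (-0.16 ± 0.06, adjusted p = 0.388) and Cox8a (-0.18 ± 0.07, adjusted p = 0.412). With this scaling 0 members were higher, against 5.79% of all genes. In the 21 members with a mean signal of at least 8, quantile normalization lowered the difference in 21, by a median of -0.04 and by up to -0.13. In the other 26 it lowered 14, with a median of -0.0014. Spots ranked in the top 100 by signal took 12.9% to 13.1% of the total in P. gingivalis arrays and 11.7% to 12.5% in control arrays. Their part in the result was not tested. After normexp background correction 3 members were lower at an unadjusted p under 0.05 by limma (7.47% of all genes), Cox8a, Uqcrh and Cox6a1, and 2 had groups that did not overlap (16.9%). In that fit 0 members were higher, against 20.2% of all genes. With an intensity trend in the variance 2 were lower (7.14%), Uqcrh and Cox8a, and 1 was higher (5.66%), Atp5j. With the replicate number as a block 0 were lower (5.81%).

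**Figure D4:**
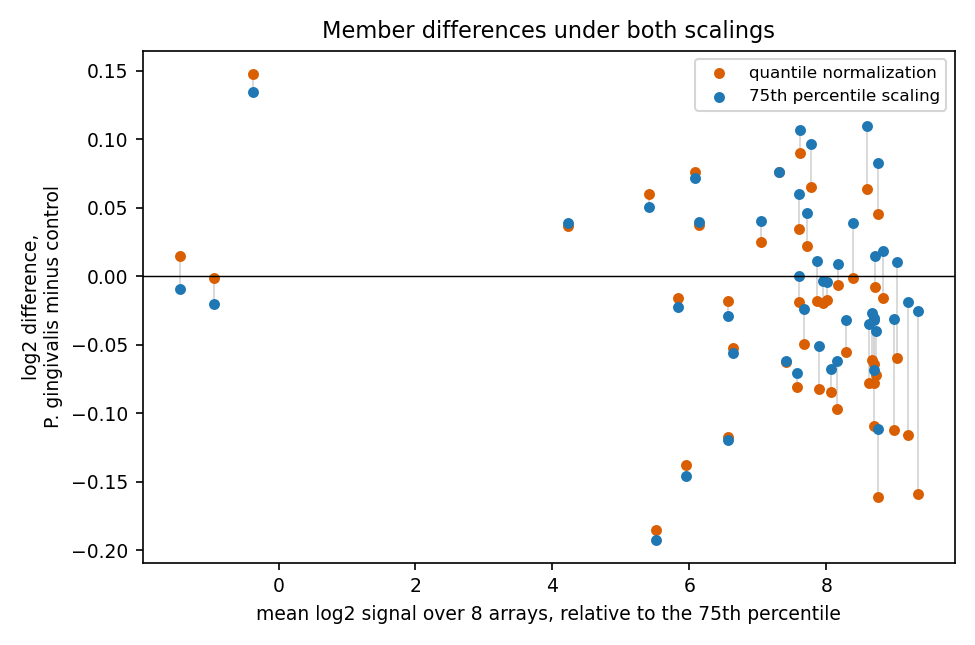
Log2 difference (P. gingivalis minus control, y axis) of the 47 tested members against mean log2 signal (x axis), after 75th percentile scaling and after quantile normalization, joined by lines. Above a mean signal of 8 each quantile value is the lower of the pair.

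Genes that build or regulate these complexes gave no adjusted call either, and their lists were chosen with results of these data known. Of 4 complex II assembly factors, 3 had a positive difference. Sdhaf1, which helps insert iron-sulfur clusters into complex II, had 3.34, 3.46, 3.35 and 3.43 in P. gingivalis muscle, against 3.19, 3.28, 3.19 and 3.26 in control muscle. Each P. gingivalis array was above each control array (3.06% of all genes), by 0.16 ± 0.06 (unadjusted p = 0.023, adjusted p = 0.392, limma). The 6 complex III assembly factors all had negative differences on their brightest probes (11065 of all 20127 genes), with a median of -0.01. The largest was that of Lyrm7, a chaperone of the Rieske protein, at -0.35 ± 0.14 (adjusted p = 0.417, limma). Another tested probe gave 0.08 for Bcs1l, 0.04 for Ttc19 and 0.08 for Uqcc1, so this count depended on the choice of probe. The 24 complex IV assembly factors split into 13 positive and 11 negative, with a median of 0.0036. Of these Coa7 had the lowest p, at 0.23 ± 0.09 (adjusted p = 0.4, limma), and in Pet100 alone, with -0.11, each P. gingivalis array was below each control array (3.71% of all genes). Of 5 complex V factors, the same held for Atpif1 alone, the inhibitor of ATP hydrolysis, at -0.05 ± 0.05.

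Subunits encoded in mitochondrial DNA were measured by 4 genes. COX2, a catalytic-core subunit of complex IV, had 9.27, 9.06, 9.37 and 9.09 in P. gingivalis muscle, against 9.15, 8.91, 8.93 and 8.93 in control muscle. The groups overlapped through control 1, and the difference was 0.22 ± 0.09 (unadjusted p = 0.0456, adjusted p = 0.442, limma). CYTB of complex III differed by 0.10, ATP8 of complex V by 0.10 and COX1 of complex IV by -0.03. The 37 genes taken as complex I by name had 13 positive and 24 negative differences, with a median of -0.03. At an unadjusted p under 0.05 by limma 0 of them passed, against 4.83% higher and 6.11% lower of all genes. In 1 of them, the accessory subunit Ndufa7, with -0.10, each P. gingivalis array was below each control array, against 3.71% of all genes.

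Of 12 regulators of mitochondrial transcription and biogenesis, 11 had a negative difference, with a median of -0.10. Gabpb1, the beta subunit of GABP, had 0.11, 0.21, 0.23 and 0.22 in P. gingivalis muscle, against 0.34, 0.49, 0.38 and 0.31 in control muscle. Nrf1, nuclear respiratory factor 1, had 0.08, -0.01, 0.03 and 0.08 in P. gingivalis muscle, against 0.30, 0.28, 0.12 and 0.15 in control muscle. Yy1, a zinc finger factor, had 2.35, 2.44, 2.41 and 2.20 in P. gingivalis muscle, against 2.68, 2.56, 2.46 and 2.50 in control muscle. In these 3, and in Pprc1, a coactivator related to PGC-1alpha, each P. gingivalis array was below each control array, against 3.71% of all genes. The differences of Gabpb1, Nrf1 and Yy1 were -0.19 ± 0.06, -0.17 ± 0.06 and -0.20 ± 0.08 (adjusted p = 0.378, 0.412 and 0.417, limma). Other probes of the same genes gave up to 0.00073 for Gabpb1, 0.22 for Nrf1, -0.05 for Yy1 and 0.0038 for Pprc1, against -0.12 for its brightest probe. Among the other regulators with a negative difference, a dimmer probe gave 0.12 for Tfam, 0.15 for Tfb2m and 0.04 for Gabpa. So the count of negative differences depended on the choice of the brightest probe. Yy1 and Pprc1 were named after their values were seen.

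Markers of other cells in the muscle are given for comparison, as the log2 of their summed level per array and the count with a positive difference. At an unadjusted p under 0.05 by limma, 2 fibroblast and 2 macrophage markers were higher (4.83% of all genes), and 1 endothelial and 1 Schwann cell marker was lower (6.11%). Those calls rest on the brightest probe of each gene. Another tested probe gave -0.58 for the macrophage marker Itgam, against 0.18, and 0.30 for the Schwann cell marker Mbp, against -0.35. For Csf1r (macrophage) and Col1a1 (fibroblast) the other tested probes kept the sign. Fibroblast markers (5 of 5 positive) ran between 7.26 and 7.45 in P. gingivalis and 7.01 and 7.34 in control muscle, and macrophage markers (5 of 6 positive) between 4.67 and 4.89 in P. gingivalis and 4.52 and 4.63 in control muscle. Endothelial markers (0 of 5 positive) lay between 3.18 and 3.47 in P. gingivalis and 3.37 and 3.74 in control muscle. Muscle fibre markers (7 of 8 positive) lay between 12.41 and 12.48 in P. gingivalis and 12.25 and 12.41 in control muscle. Slow fibre markers (7 of 7 positive) summed to between 8.18 and 8.22 in P. gingivalis and 8.00 and 8.22 in control muscle, a sum set mainly by Myl3, and their median SD within a group was 0.55. Myh7, the slow myosin heavy chain, had -0.90, 2.23, 1.04 and -1.03 in P. gingivalis muscle, against 0.01, -0.51, 1.76 and -0.74 in control muscle. It was thus highest in P. gingivalis 2 and lowest in P. gingivalis 4, with groups that overlapped. Erythroid markers (1 of 6 positive) lay between 7.60 and 8.24 in P. gingivalis and 7.47 and 8.11 in control muscle. Adipocyte markers (4 of 5 positive) lay between 1.87 and 3.53 in P. gingivalis and 2.12 and 3.10 in control muscle. Schwann cell markers (2 of 4 positive) lay between 1.46 and 1.93 in P. gingivalis and 1.51 and 1.77 in control muscle. In whole muscle, fewer cells of a type and less RNA per cell cannot be told apart. The part of these markers in the members' differences was not tested.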

How the data were processed

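Spot intensity was deposited by the authors as Agilent Feature Extraction output. Its version is 11.0.1.1 per the file headers, whereas the submitters' processing notes name 11.1. Per the file headers, the processed intensity is background-subtracted and is on mm9 probe annotation. The authors also deposited a table of log2 values whose processing is not given in the sources used here. Each log2 intensity was taken relative to the 75th percentile of the non-control spots of its array. Spots of a probe were averaged, and a gene was represented by its brightest tested probe. The comparison used limma 3.58.1 (R 4.3.3) on all 8 arrays, with Benjamini-Hochberg adjustment over 31649 tested probes at a threshold of 0.05. The fit was tested on simulated data with independent noise and planted differences larger than that of any member. That test therefore does not show whether differences of the members' size would be found.

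Members and lists were chosen with earlier results of these data known. Values per array are given for the 3 lowest p-values per complex, Cycs and the isoform sets. Symbols were updated through RefSeq (49 matched, 3 renamed). Replicate numbers did not pair the samples (correlations of same-numbered arrays 0.0071 to 0.06). The alternatives changed normalization, background correction (normexp, offset 50), filter, variance trend, probe choice, value table, group labels, replicate block and array set. The number of arrays limits precision, and no spot was saturated.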

Additional observations from a re-analysis of the deposited data

Results flagged for a closer look

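Among 62 groups of 4 arrays examined, 5 held 1 array whose gap to its nearest neighbour was large against the group's range by Dixon's ratio, and chance alone flags about 1 group in 20. For Atp5g1, control 4 was at 8.84 while the other control arrays lay between 8.67 and 8.69. For Cycs, control 1 was at 8.26 while the others lay between 8.16 and 8.17. In the log ratio of Atp5g1 over Atp5g3, P. gingivalis 1 was at 0.73 while the other P. gingivalis arrays lay between 0.81 and 0.82. Control 1 also stood apart in the median of complex IV, at 0.066 against -0.029 to -0.017 in the other control arrays, and in that of complex V, at 0.088 against -0.050 to -0.037. Of the 5, control 1 accounts for 3.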

How the results depend on the processing

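The count of members past an adjusted p of 0.05 was 0 in each limma fit run, and the lowest member adjusted p outside the main fit was 0.0642, for Cox8a after normexp correction. The average over probes was run for differences only, without p-values. Members lower at an unadjusted p under 0.05 numbered 1 as reported, 3 under quantile normalization, 3 after normexp, 3 in the value table with columns matched by their values, 2 with an intensity trend, and 0 with the value table's own labels, its groups, the 4 shared arrays, the replicate block or centring on the members. Higher members numbered 0 as reported, 1 with the trend and 2 with matched columns. The shares over all genes for these lower and higher counts are given above. Members with groups that did not overlap numbered 0 as reported (6.76% of all genes), 6 under quantile normalization (7.04%) and 2 after normexp (16.9%). They numbered 1 with the table's own labels (2.28%), 6 with matched columns (6.66%), 11 on the 4 shared arrays (43.5%) and 5 after centring (5.75%). The count after centring cannot be fairly compared with its share or with the other counts, because the shift came from the members themselves. The replicate block (numbers that do not pair the samples) gave 0 lower members, the Cox8a p then being 0.0832. Leaving out 1 array gave 0 to 1 lower members (4.1% to 7.17% of all genes). It gave 0 to 6 members without overlap (9.86% to 13.1% of all genes), the 6 without control 1. The complex III median became -0.060 under quantile normalization and the complex II median 0.053 with the table's own labels. The Cox6a2 over Cox6a1 difference became -0.021 under quantile normalization, -0.072 with own labels, -0.061 with matched columns and -0.020 with the table's groups. Own labels gave 0.037 for Cox8b over Cox8a and -0.0051 for Cox4i2 over Cox4i1, the table's groups 0.035 and 0.043, and the 4 shared arrays 0.26 for Atp5g1 over Atp5g2.

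Among the genes given in full above, single genes changed sign as follows. The remaining members are not listed, and some of them changed sign too. Under quantile normalization, for example, Uqcrq went from 0.011 to -0.060 and Cox5a from 0.018 to -0.016. With the table's own labels the log2 differences were 0.056 for Atp5g3, -0.021 for Atp5j, -0.012 for Atp5j2, 0.0054 for Cox4i1, 0.0088 for Cox6a1, 0.059 for Cox7a1, 0.010 for Cox7a2, 0.035 for Cox8b, 0.018 for Cycs, 0.047 for Sdhc and 0.064 for Sdhd. With matched columns they were 0.034 for Cycs and 0.0050 for Uqcrb. With the table's groups they were 0.062 for Atp5g3, -0.043 for Atp5j, -0.044 for Atp5j2, 0.0059 for Cox4i1, 0.028 for Cox7a1, 0.033 for Sdhc, 0.043 for Sdhd and 0.044 for Uqcrb. On the 4 shared arrays they were 0.059 for Atp5g3, 0.0094 for Cox7a1 and 0.011 for Sdhc. Centring gave 0.0041 for Atp5g3, and averaging probes -0.049 for Atp5j2, 0.010 for Cycs and -0.011 for Sdha. Leaving out 1 array gave ranges of -0.060 to 0.045 for Atp5g3, -0.052 to 0.017 for Cox6a2, -0.051 to 0.016 for Cox7a1, -0.057 to 0.0099 for Sdhc, -0.054 to 0.0051 for Cox7a2. The cause was not tested. With 4 arrays a group, each tested member's interval on its brightest probe lay within a 1.5-fold change either way. Intervals of dimmer probes could be wider, as for Cox7c, where 1 reached 1.69-fold.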
